A study of Mus musculus with 17 samples.

Results

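BMP signalling was followed through 8 genes of the deposited count table, chosen by symbol from 55421 genes: the ligands Bmp4 and Bmp5, the receptors Bmpr1a and Bmpr2, the target genes Id1 and Id3, and the secreted antagonists Grem1 and Fst. Each symbol matched 1 row. The libraries were total RNA-Seq of lung fibroblasts cultured from 17 mice, 1 mouse per library. All mice carried Ephb4f/f and Col1a2-CreERT2 on a C57BL/6J background, so the recombinase was driven in Col1a2-expressing cells. Ephb4 control mice received corn oil and Ephb4 CKO mice received 4-hydroxytamoxifen at 1 mg per day for 5 days, starting at 4 weeks of age. At 6 weeks of age the mice received bleomycin at 1.2 U/kg, an agent that injures the lung and is used to induce fibrosis, or PBS. Cells were taken on day 14, grown in serum-containing medium and passaged once. The groups were Ephb4 control with PBS (n = 4), Ephb4 control with bleomycin (n = 4), Ephb4 CKO with PBS (n = 5) and Ephb4 CKO with bleomycin (n = 4).

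Bone morphogenetic proteins are secreted ligands of the TGF-β superfamily. They bring together type I and type II serine/threonine kinase receptors, the type I receptor phosphorylates SMAD1, SMAD5 and SMAD9, and these enter the nucleus with SMAD4 and switch on targets such as the Id genes. Secreted antagonists bind the ligands outside the cell and keep them from the receptors, and gremlin-1, one of them, has been linked to lung fibrosis.

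Total counts ran from 66540022 to 120554468 per library. Levels are given as CPM, counts scaled to a library of 1000000 with TMM factors. The targeted gene did not separate the genotypes after PBS: Ephb4 was 24.2, 4.00, 33.4 and 2.32 CPM in Ephb4 control and 7.70, 23.6, 8.97, 4.01 and 4.05 CPM in Ephb4 CKO. After bleomycin it was 65.1, 13.1, 35.3 and 40.5 CPM in Ephb4 control and 14.0, 9.53, 10.1 and 4.93 CPM in Ephb4 CKO, and the groups overlapped, control replicate 2 lying below CKO replicate 1. In 3 libraries (Ephb4 control bleomycin replicate 2, Ephb4 CKO bleomycin replicates 1 and 2) the sex-linked genes went against the labelled sex, so many results resting on them are also given without them. Whether these 3 libraries hold the mice named in their labels was not tested, and an exchange between groups would change what the genotype values mean. Without them Ephb4 after bleomycin did not overlap (35.3 to 65.1 CPM in 3 Ephb4 control cultures, 4.93 to 10.1 CPM in 2 Ephb4 CKO cultures), with a log2 fold change of -2.68 ± 1.15, against -2.0 ± 0.79 with all libraries (adjusted p = 0.304 and 0.220, edgeR). The 12 measured fibroblast markers of 14, among them Col1a1 and Pdgfra, had a mean log2 CPM of 2.93 ± 3.30 in Ephb4 control PBS, 7.94 ± 0.40 in Ephb4 control bleomycin, 2.90 ± 1.88 in Ephb4 CKO PBS and 3.72 ± 2.69 in Ephb4 CKO bleomycin (SD). Their summed level ranged over 105–7441, 6106–12093, 227–2679 and 112–2279 CPM in these groups. All 18 macrophage markers were measured, with summed levels of 10944–47202, 1470–21197, 24652–42293 and 24182–44798 CPM, so the cultures labelled as fibroblasts also held macrophage transcripts in every group. Of 6 lymphocyte markers none passed the count filter. The sample titles fall into number series 11 and 12, whose meaning the labels do not give: all 4 Ephb4 control bleomycin mice were of series 12, against 1 of 4, 2 of 5 and 2 of 4 in Ephb4 control PBS, Ephb4 CKO PBS and Ephb4 CKO bleomycin.

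Grem1 and Bmp4 showed, among the members, the lowest unadjusted p-values for bleomycin in Ephb4 control, and the 250 bases before the RefSeq start site of each are shown so that the SMAD-type motifs of an antagonist and a ligand can be set side by side (GRCm38.p6, gene strand). Capitals mark 3 motifs. The first is GGCGCC, a GC-rich site bound by BMP-activated SMADs. The second is GTCT, the core of the SMAD-binding element, or its reverse complement. The third is the E-box, CANNTG.
Grem1 promoter, chr2:113758649-113758898, reverse strand: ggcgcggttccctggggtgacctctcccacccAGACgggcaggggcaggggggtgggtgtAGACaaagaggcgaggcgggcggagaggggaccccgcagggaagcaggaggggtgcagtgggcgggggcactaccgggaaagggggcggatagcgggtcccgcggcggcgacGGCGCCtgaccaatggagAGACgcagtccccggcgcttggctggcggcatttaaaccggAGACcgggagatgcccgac
Bmp4 promoter, chr14:46390670-46390919, reverse strand: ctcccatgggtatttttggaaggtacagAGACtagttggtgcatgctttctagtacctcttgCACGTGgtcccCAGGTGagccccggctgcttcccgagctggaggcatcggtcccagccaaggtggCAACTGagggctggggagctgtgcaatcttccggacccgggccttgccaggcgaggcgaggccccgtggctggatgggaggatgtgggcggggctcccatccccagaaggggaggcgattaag
The Grem1 window held GGCGCC at position -78 from the start site and GTCT 4 times, and the Bmp4 window held GTCT once and the E-box 3 times. GGCGCC was present in 9.59% of 32851 promoter windows of this length, the longer TGGCGCC in 3.21%, GTCT in 82.9% and the E-box in 66.2%, counted on both strands. GGCGCC was also found in the windows of Bmpr1a and Bmpr2 and not in those of Bmp5 and Id3. These matches describe letters only.

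Per kilobase of merged exon, which allows genes to be compared, the order of levels changed between groups. In Ephb4 control PBS the mean level was 11.2 CPM per kb for Id3, 11.2 for Bmpr1a, 9.07 for Grem1, 8.35 for Fst, 8.28 for Id1, 6.14 for Bmpr2, 5.31 for Bmp5 and 0.648 for Bmp4. The SD of Grem1 (10.3) and of Fst (14.7) exceeded their means, so the first 7 in that order were not separated by their spread. In Ephb4 control bleomycin Grem1 led at 67.2 ± 29.7 CPM per kb, followed by Id3 (31.4 ± 20.6) and Fst (20.2 ± 14.0), and Bmp4 was last at 1.82 ± 0.81. In Ephb4 CKO bleomycin Grem1 again had the highest mean, 39.5 ± 47.6 CPM per kb, with a range from 0.127 to 100.2. That rank rested on replicates 1 and 2, whose sex-linked genes went against the labels. Without them the Grem1 mean was 6.37 CPM rather than 163.9 CPM, below Bmpr1a at 37.3 CPM. Over all 4 Ephb4 CKO bleomycin cultures the receptors spread less around their means than Grem1, at 6.36 ± 2.37 CPM per kb for Bmpr1a and 3.56 ± 0.57 for Bmpr2.

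**Figure D1:**
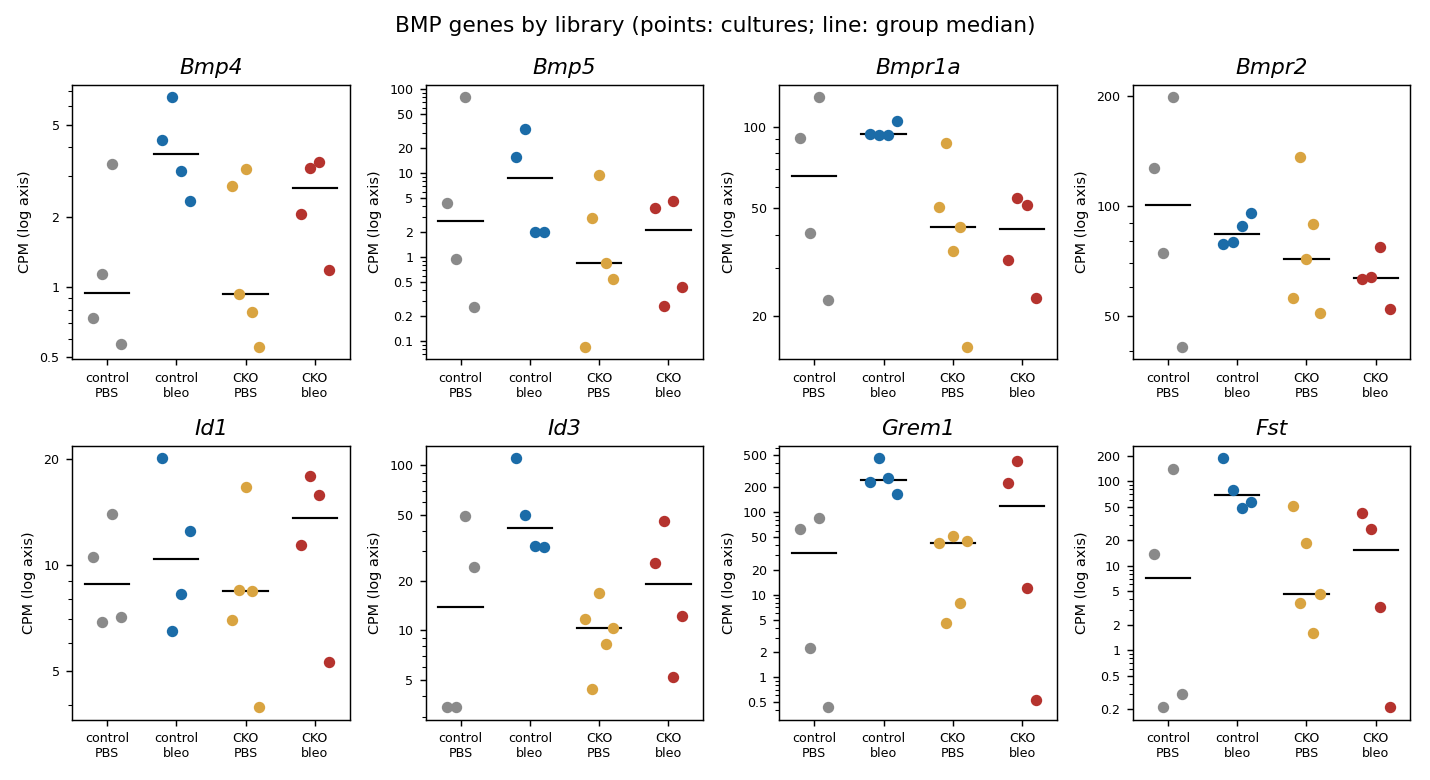
CPM (log axis) of the 8 BMP genes in each of the 17 cultures, by group; points are cultures and lines are group medians. Grem1 in Ephb4 control bleomycin (166.9 to 454 CPM) lay above every Ephb4 control PBS culture (0.431 to 85.3 CPM), while Ephb4 CKO bleomycin spread from 0.528 to 415 CPM.

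The first comparison asked how bleomycin moved these genes in Ephb4 control fibroblasts. Grem1 (chromosome 2, 113746164–113758646, reverse strand, GRCm38), which encodes gremlin-1, a secreted protein that binds BMP ligands, was 62.5, 2.27, 85.3 and 0.431 CPM with PBS and 232, 454, 262 and 166.9 CPM with bleomycin. Every bleomycin culture was above every PBS culture. The fitted log2 fold change was 2.89 ± 1.56 (SE), and with an adjusted p of 0.402 (edgeR quasi-likelihood test, Benjamini-Hochberg) it did not pass 0.05. The fibroblast marker score was higher by 5.01 in the same cultures, with no overlap (exact permutation test, 2-sided, p = 0.0286, the smallest that 4 against 4 allows; 0.137 adjusted over 24 comparisons) and with all 12 markers above 0. With that score in the fit the values turned to -1.85 for Grem1 and -1.81 for Fst, and the score's part was not tested. Grem1 was 1 of 7 tested members whose groups did not overlap in this direction, where 5.72% of all tested genes did so. Without Ephb4 control PBS replicate 3 the count was 4 of 7 (Bmpr1a, Id3, Grem1 and Fst), against 13.9% of all tested genes. Leaving out the 3 libraries whose sex-linked genes went against the labels gave Grem1 a value of 2.56 ± 1.43 (adjusted p = 0.493, edgeR). Grem1 was then again the only member without overlap, against 8% of all tested genes, higher. In that fit Fst was 1.35 ± 1.75 and Id3 1.54 ± 0.86 (adjusted p = 0.759 and 0.490, edgeR). Fst (chromosome 13, 114452290–114458951), encoding follistatin, which binds activins and some BMPs, was 13.8, 0.214, 138.9 and 0.300 CPM with PBS and 187, 79.3, 47.7 and 57.4 CPM with bleomycin. Its groups overlapped through Ephb4 control PBS replicate 3, and the log2 fold change was 1.28 ± 1.64 (adjusted p = 0.714). Without that culture the Fst mean with PBS was 4.79 rather than 38.3 CPM and the log2 fold change was 4.31; its fibroblast marker score of 7.40 was the highest of the PBS cultures.

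Among the targets, Id3 (chromosome 4, 136143497–136145755), a helix-loop-helix protein that blocks bHLH transcription factors, was 3.42, 3.45, 49.3 and 24.1 CPM with PBS and 110.1, 50.2, 32.4 and 32.1 CPM with bleomycin. The groups overlapped, with a log2 fold change of 1.48 ± 0.82 (adjusted p = 0.409). Id1 (chromosome 2, 152736251–152737410), its relative, ranged from 6.88 to 13.9 CPM with PBS and from 6.47 to 20.1 CPM with bleomycin, a log2 fold change of 0.30 ± 0.47 (adjusted p = 0.771). The 2 targets thus had different fitted values, a difference that was not tested.

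The ligands were low. Bmp4 (chromosome 14, 46383520–46390669) did not pass the filter on low counts and was fitted without it. It was 0.737, 1.15, 3.37 and 0.571 CPM with PBS and 4.32, 6.55, 3.17 and 2.35 CPM with bleomycin. Only Ephb4 control PBS replicate 3 reached into the bleomycin range, and the log2 fold change was 1.56 ± 0.65 (unadjusted p = 0.029, adjusted p = 0.544 over 35414 genes, edgeR). Bmp5 (chromosome 9, 75775364–75900310) was 4.41, 0.945, 79.9 and 0.250 CPM with PBS and 15.4 and 33.6 CPM in bleomycin replicates 1 and 2 and close to 2 CPM in the other two. Its PBS mean of 21.4 CPM fell to 1.87 CPM without replicate 3, and its log2 fold change of -0.69 ± 1.58 (adjusted p = 0.852) became 2.88. The Bmp5 value was -1.72 ± 1.86 without the 3 libraries whose sex-linked genes went against the labels (adjusted p = 0.706, edgeR). Exons of Bmp4, Bmp5, Bmpr1a and Fst overlap a gene on the opposite strand, and the libraries were counted by strand.

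Of the receptors, Bmpr1a (chromosome 14, 34410734–34503341), a type I receptor, was 91.3, 40.4, 128.5 and 23.0 CPM with PBS and 94.1, 93.3, 93.7 and 104.7 CPM with bleomycin. The bleomycin cultures lay close together inside the wider PBS range, and the log2 fold change was 0.45 ± 0.51 (adjusted p = 0.676). Bmpr2 (chromosome 1, 59763400–59879014), the type II BMP receptor, was 127.4, 74.3, 198.8 and 41.1 CPM with PBS and 78.6, 79.6, 88.3 and 95.6 CPM with bleomycin, a log2 fold change of -0.37 ± 0.39 (adjusted p = 0.654). Of the 7 members that passed the count filter, 0 passed an adjusted p of 0.05 and 0 an unadjusted 0.05, where edgeR called 0% of 10481 genes (adjusted) and 14.3% (unadjusted). DESeq2 called 166 genes (1.58%) in this comparison and no member.

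**Figure D2:**
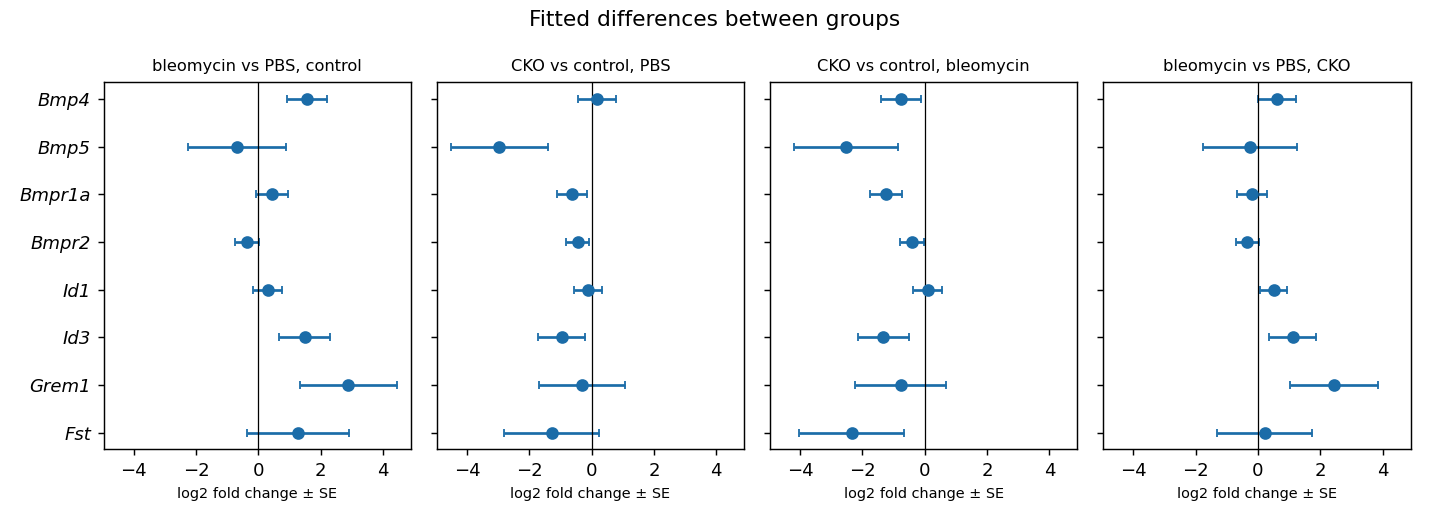
Fitted log2 fold change (x axis) with its SE for the 8 BMP genes in the 4 pairwise comparisons; each point is 1 gene, and Bmp4 is from the fit without the filter on low counts. Grem1 had a positive value for bleomycin in both genotypes (2.89 and 2.43), with an SE above 1.4 in each.

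Comparing Ephb4 CKO with Ephb4 control after bleomycin, 6 of 7 tested members had a value below 0 (median log2 fold change -1.26, against 0.01 over all tested genes), and 3 of 7 did not overlap, all lower: Bmpr1a, Bmpr2 and Fst. Of all tested genes 49.3% had a value below 0 and 12.2% were lower without overlap. This comparison and the previous one share the 4 Ephb4 control bleomycin cultures. Bmp5, counted among the 6, passed the count filter only through 3 Ephb4 control cultures, with PBS or bleomycin. Bmpr1a was 32.3, 54.6, 51.3 and 23.3 CPM in Ephb4 CKO bleomycin, all below the lowest Ephb4 control bleomycin culture at 93.3 CPM. Its log2 fold change was -1.26 ± 0.51, with an adjusted p of 0.223 (unadjusted 0.027), the smallest among the members. Bmpr2 was 63.0, 63.9, 77.3 and 52.2 CPM, under the Ephb4 control minimum of 78.6 CPM, with a log2 fold change of -0.42 ± 0.39 (adjusted p = 0.525). Fst was 42.4, 27.3, 3.26 and 0.211 CPM, under the Ephb4 control minimum of 47.7 CPM, with a log2 fold change of -2.34 ± 1.69 (adjusted p = 0.408). Without the 3 libraries whose sex-linked genes went against the labels, the values were -1.43 ± 0.76 for Bmpr1a, -0.48 ± 0.58 for Bmpr2 and -5.86 ± 2.79 for Fst (adjusted p = 0.344, 0.671 and 0.315, edgeR).

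Grem1 overlapped between the genotypes, and in Ephb4 CKO bleomycin it was 227, 415, 12.2 and 0.528 CPM. Replicates 1 and 2 lay inside the Ephb4 control bleomycin range, and replicates 3 and 4 lay far below it. The log2 fold change was -0.77 ± 1.46 (adjusted p = 0.765). Replicates 1 and 2 are the cultures of number series 12 and those whose sex-linked genes went against the labels, and their fibroblast marker scores were 4.35 and 6.71, against 3.59 and 0.21 in replicates 3 and 4. Without the 3 libraries whose sex-linked genes went against the labels, the Grem1 value was -5.16 (adjusted p = 0.303), and 5 of 7 members did not overlap, all lower, against 23.2% of all genes. Within number series 12 it was 0.23, and the same 3 members, Bmpr1a, Bmpr2 and Fst, were lower without overlap (2 against 4 cultures; 21.7% of all genes).

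Id3 was 25.7, 46.0, 5.22 and 12.2 CPM in Ephb4 CKO bleomycin, with replicate 2 inside the Ephb4 control range, and its log2 fold change was -1.33 ± 0.82 (adjusted p = 0.338). Without the 3 libraries whose sex-linked genes went against the labels, Id3 did not overlap. It was then 5.22 to 12.2 CPM in 2 Ephb4 CKO cultures and 32.1 to 110.1 CPM in 3 Ephb4 control cultures. Its log2 fold change was then -2.78 ± 1.15 (adjusted p = 0.303, edgeR). Id1 was 11.4, 17.8, 15.8 and 5.31 CPM, a value of 0.09 ± 0.46 (adjusted p = 0.922). Bmp4 was 2.07, 3.26, 3.45 and 1.19 CPM (-0.76 ± 0.64, adjusted p = 0.600) and Bmp5 was 3.79, 0.263, 4.68 and 0.434 CPM (-2.53 ± 1.67, adjusted p = 0.369). Both ligands overlapped between the genotypes. Without the same 3 libraries Bmp5 was -1.38 ± 2.21 and Id1 -0.41 ± 0.61 (adjusted p = 0.759 and 0.741, edgeR).

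The lower Fst, Bmpr1a and Bmpr2 in Ephb4 CKO bleomycin stood beside a lower fibroblast marker score. That score differed from Ephb4 control bleomycin by -4.22 with no overlap (exact permutation p = 0.0286, 0.137 adjusted), and all 12 fibroblast markers had values below 0. The macrophage marker score was higher by 1.64 (exact permutation p = 0.0286, 0.137 adjusted), with all 18 markers above 0. In bulk RNA fewer cells of a type and less RNA per cell cannot be told apart. With the fibroblast score in the fit, Fst was 1.73, Bmpr2 0.052 and Bmpr1a -0.64, and Grem1, whose groups overlapped, was 2.46. The smallest adjusted p of any member in that fit was 0.998 (edgeR). The score's part in these results was not tested, since it moves with the groups.

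**Figure D3:**
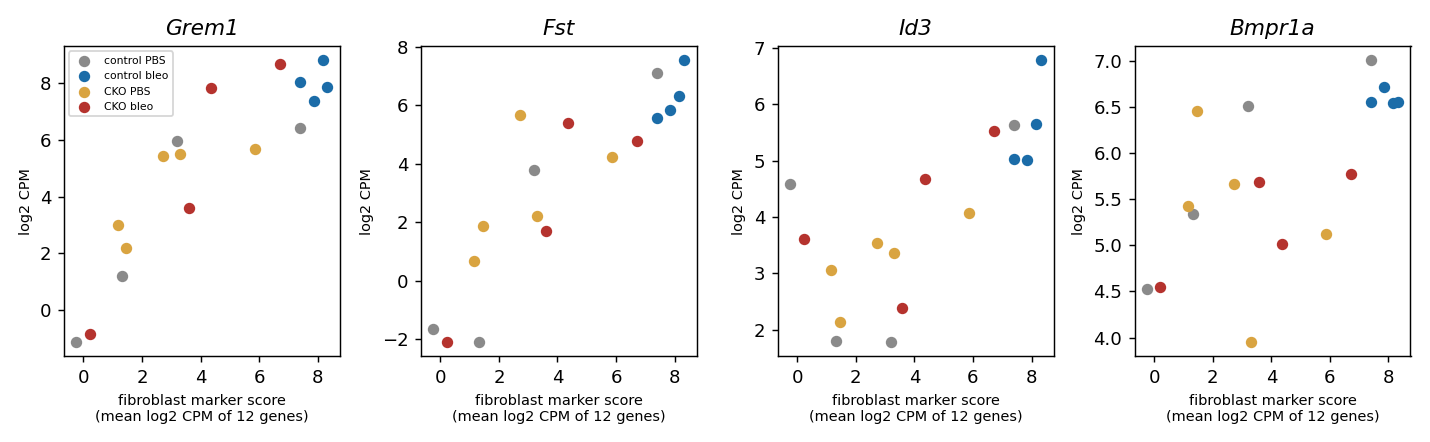
log2 CPM of Grem1, Fst, Id3 and Bmpr1a (y axes) against the fibroblast marker score (x axis, mean log2 CPM of 12 genes) in 17 cultures, coloured by group. The Ephb4 control bleomycin cultures sit at the right, at scores of 7.41 to 8.32, with Ephb4 control PBS replicate 3 at 7.40 beside them.

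After PBS, Ephb4 CKO and Ephb4 control overlapped for every member, where 0.248% of all tested genes did not. Grem1 was 42.8, 4.56, 51.5, 7.90 and 45.0 CPM in Ephb4 CKO PBS, with a log2 fold change of -0.31 ± 1.37. Fst was 50.3, 3.66, 18.7, 1.59 and 4.58 CPM, with a value of -1.28 ± 1.53. Id3 was 11.7, 4.39, 16.8, 8.31 and 10.3 CPM (-0.96 ± 0.76). The receptors varied between these cultures, with Bmpr1a at 50.6, 87.4, 34.7, 42.8 and 15.4 CPM and Bmpr2 at 55.8, 136.6, 71.7, 89.3 and 50.9 CPM, both highest in replicate 2. Bmp5 was 0.0853, 2.88, 9.40, 0.839 and 0.545 CPM, inside the range of Ephb4 control PBS apart from replicate 1, which lay below it. All 7 tested members had a value below 0, against 53.6% of all tested genes, from -2.96 (Bmp5) to -0.11 (Id1), each with an adjusted p of 1.00 (edgeR), and all shared Ephb4 control PBS replicate 3 on the other side. Without that culture Bmp5 was 0.57, Fst 1.74, Grem1 0.49, Id1 0.13, Id3 0.01 and Bmpr2 0.02, while Bmpr1a was -0.14. Bmp5 passed the count filter only through 3 Ephb4 control cultures, so its place among the 7 lower members is not independent of that filter.

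Bleomycin against PBS within Ephb4 CKO gave overlapping groups for every member, where 0.0859% of all tested genes did not overlap. The Grem1 mean was 163.9 CPM with bleomycin and 30.4 CPM with PBS, a log2 fold change of 2.43 ± 1.41 (adjusted p = 1.00). Without the 3 libraries whose sex-linked genes went against the labels it was -2.29, and Fst, 0.21 with all libraries, was -3.22. Id3 was 1.12 ± 0.76 and Id1 0.50 ± 0.44. In the interaction of genotype and bleomycin, which asks whether the bleomycin difference differed between genotypes, the tested members ranged from -1.06 (Fst) to 0.43 (Bmp5), and 0 of 7 passed an unadjusted p of 0.05, against 3.46% of all tested genes.

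The rest of the pathway was read from 53 further genes, of which 22 passed the count filter. The other BMP ligands were low, and 0 of 11 passed; Bmp2 had the highest mean (6.69 CPM), set by Ephb4 CKO PBS replicate 1 at 76.3 CPM. Inhba, which encodes the activin A subunit that follistatin binds, was abundant at a mean of 284 CPM, with a log2 fold change of -2.17 ± 0.98 for bleomycin in Ephb4 CKO (adjusted p = 1.00). That value rested on Ephb4 CKO PBS replicates 1 and 4 at 1567 and 715 CPM. The medians were 92.6 CPM with PBS and 64.5 CPM with bleomycin, and the groups overlapped. Without the 3 libraries whose sex-linked genes went against the labels the Inhba value was -1.56 ± 1.28. The other secreted antagonists and modulators had the largest medians of the role groups: all 7 tested of 16 had values above 0 for bleomycin in Ephb4 control (median 1.57; 44.5% of all tested genes were above 0). All 7 had values below 0 for Ephb4 CKO against Ephb4 control after bleomycin (median -1.87; 49.3% of all tested genes were below 0). Unadjusted p was under 0.05 for 1 in the first comparison (6.28% of all tested genes, higher) and 3 in the second (9.18%, lower), and none passed edgeR's adjustment. DESeq2 with the column run as a covariate called 1 of the 7, Crim1, in both (adjusted p = 0.029 and 0.025). In these comparisons that fit called 231 and 387 of 10481 tested genes. Crim1, a membrane protein with chordin-like repeats, was 29.1, 10.0, 29.1 and 7.17 CPM in Ephb4 control PBS and 57.2, 50.5, 112.2 and 111.5 CPM in Ephb4 control bleomycin. Its groups did not overlap, and its log2 fold change was 2.14 ± 0.66 (adjusted p = 0.287). The value was 2.32 ± 0.63 without the 3 libraries whose sex-linked genes went against the labels (adjusted p = 0.396, edgeR). In Ephb4 CKO bleomycin Crim1 was 23.9, 47.2, 8.95 and 10.4 CPM, again without overlap (-1.87 ± 0.65, adjusted p = 0.211), and -3.31 ± 0.86 without the 3 libraries whose sex-linked genes went against the labels (adjusted p = 0.302, edgeR). Fstl1, a follistatin-like secreted protein and the most abundant of the group, had means of 323, 1005 and 288 CPM in Ephb4 control PBS, Ephb4 control bleomycin and Ephb4 CKO bleomycin.

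Of the other receptors, Acvr2a, a type II receptor for activins and BMPs, was 13.7, 24.6, 26.2 and 32.8 CPM in Ephb4 control bleomycin and 7.39, 10.6, 12.6 and 4.74 CPM in Ephb4 CKO bleomycin, without overlap. Its log2 fold change of -1.46 ± 0.44 had an adjusted p of 0.197 by edgeR and 0.043 by DESeq2, which called 3.81% of genes in that comparison. Without the same 3 libraries it was -1.52 ± 0.66 (adjusted p = 0.304, edgeR). Bambi, a pseudoreceptor that blocks signalling, was -3.10 ± 1.16 in the same comparison (adjusted p = 0.218). Its groups overlapped with all libraries but not without the same 3, where its value was -4.06 ± 1.71 (adjusted p = 0.304, edgeR). Bambi passed the count filter only through 4 Ephb4 control cultures, and it is counted among the 19 lower genes below. Smad5, a BMP-activated SMAD, ranged from 45.6 to 61.6 CPM in Ephb4 control bleomycin and from 34.0 to 37.6 CPM in Ephb4 CKO bleomycin, a value of -0.57 ± 0.27 (adjusted p = 0.250). Smad4, the shared partner, was -0.22 ± 0.15 and Smurf1, a ubiquitin ligase acting on SMADs, 0.02 ± 0.26. Smad5, Smad4 and Smurf1 were -0.58 ± 0.40, -0.40 ± 0.21 and 0.02 ± 0.38 without the same 3 libraries. Id2, the one other target that was tested, had the opposite signs to Id3, -1.53 ± 0.69 for bleomycin in Ephb4 control (adjusted p = 0.344) and 1.65 ± 0.70 for Ephb4 CKO after bleomycin (adjusted p = 0.227). Those Id2 values were -1.90 ± 0.82 and 2.13 ± 0.92 without the same 3 libraries (adjusted p = 0.445 and 0.304, edgeR). In the second comparison Id2 then did not overlap, where 25.3% of all tested genes were higher without overlap. Over the 22 genes, 19 had a value below 0 for Ephb4 CKO against Ephb4 control after bleomycin, where 49.3% of all tested genes did, and 7 were lower without overlap, against 12.2% of all tested genes (17 without the 3 libraries whose sex-linked genes went against the labels, where 23.2% of all tested genes were). The fibroblast and macrophage scores given above moved with these values too. So did a smooth muscle or pericyte marker score, the mean log2 CPM of 5 genes. It differed by 4.26 for bleomycin in Ephb4 control and by -3.50 for Ephb4 CKO after bleomycin. Neither pair of groups overlapped in it (exact permutation p = 0.0286, 0.137 adjusted, in each). The part of these scores was not tested.

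**Figure D4:**
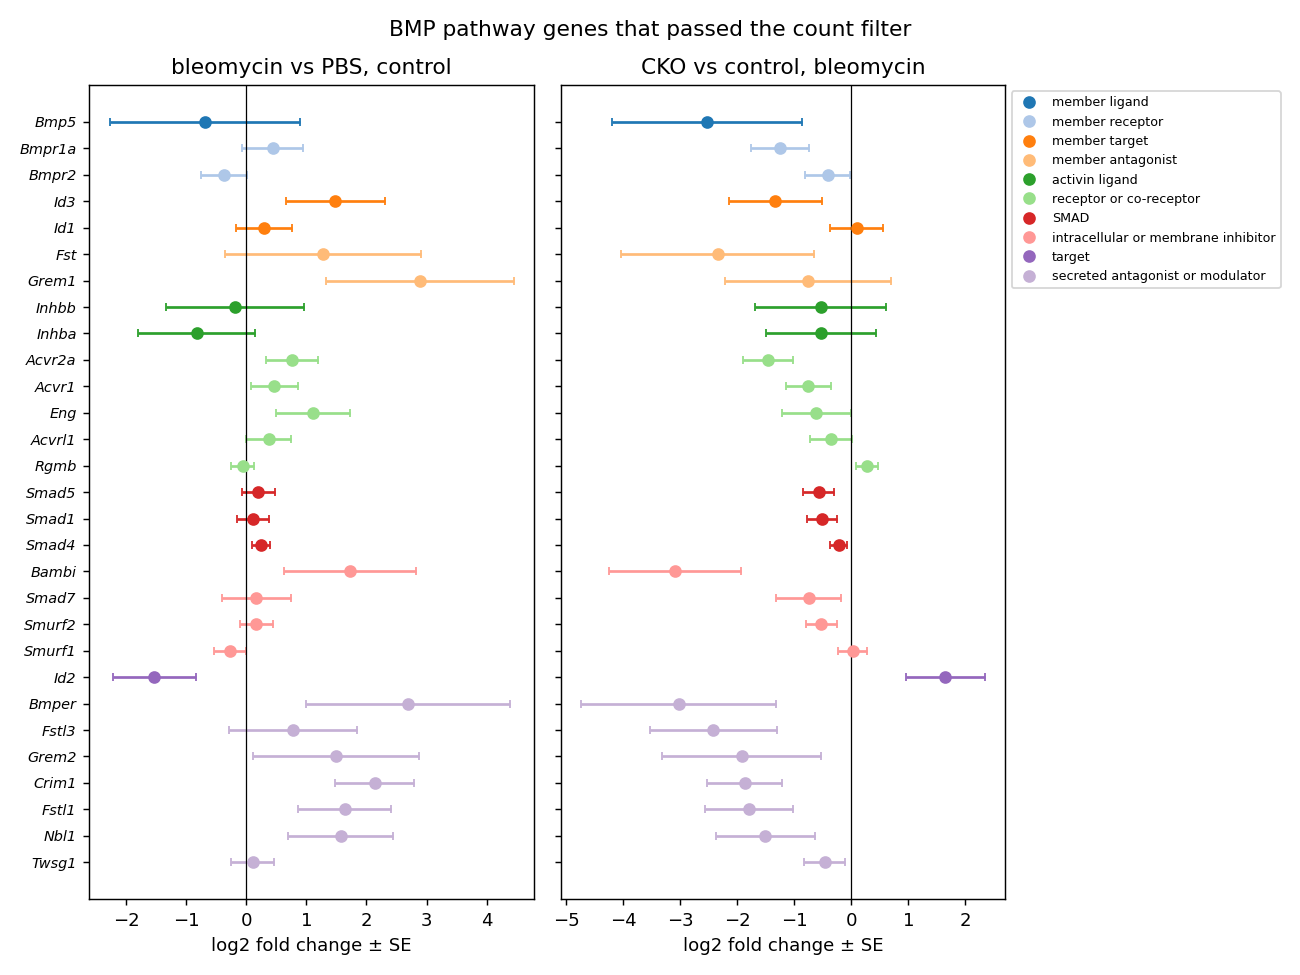
Fitted log2 fold change with its SE (x axes) of the members and the wider pathway genes that passed the count filter, coloured by role, for bleomycin in Ephb4 control (left) and for Ephb4 CKO against Ephb4 control after bleomycin (right). The 7 other secreted antagonists lie above 0 on the left and below 0 on the right, in 2 comparisons that share the Ephb4 control bleomycin cultures.

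Across the 17 cultures the genes whose log2 CPM was most like Grem1 were Thbs2 (Pearson r = 0.956), Hmga2 (0.955) and Cck (0.941). Fst was most like Vegfc (0.968), Unc5b (0.959) and Steap1 (0.956), and Grem1 and Fst had r = 0.915 with each other. Bmpr1a was most like Wwtr1 (0.964), Cdc42bpa (0.961) and Nudcd1 (0.945), and Bmpr2 most like Fyttd1 (0.944), Gm38394 (0.941) and Rnf19a (0.934), with r = 0.799 between the receptors. Id3 was most like Tspan4 (0.897), Lix1l (0.872) and Pgghg (0.870), Id1 most like Gm8113 (0.840), Pms2 (0.798) and Rrm1 (0.794), and the pair had r = 0.369. Bmp4 was most like Nnmt (0.905), Nudt4 (0.900) and Thbs3 (0.899), and Bmp5 most like Kdm2a (0.915), Spon1 (0.895) and Errfi1 (0.893). Some of these genes ranked far lower by Spearman rank correlation: Cck 199 for Grem1, Nudcd1 133.5 and Wwtr1 98.5 for Bmpr1a, and Spon1 95 for Bmp5. Others stayed near the top, such as Fyttd1 at 1 for Bmpr2 and Thbs2 at 4 for Grem1. These are descriptions over cultures that share groups and differ in fibroblast and macrophage transcripts.

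**Figure D5:**
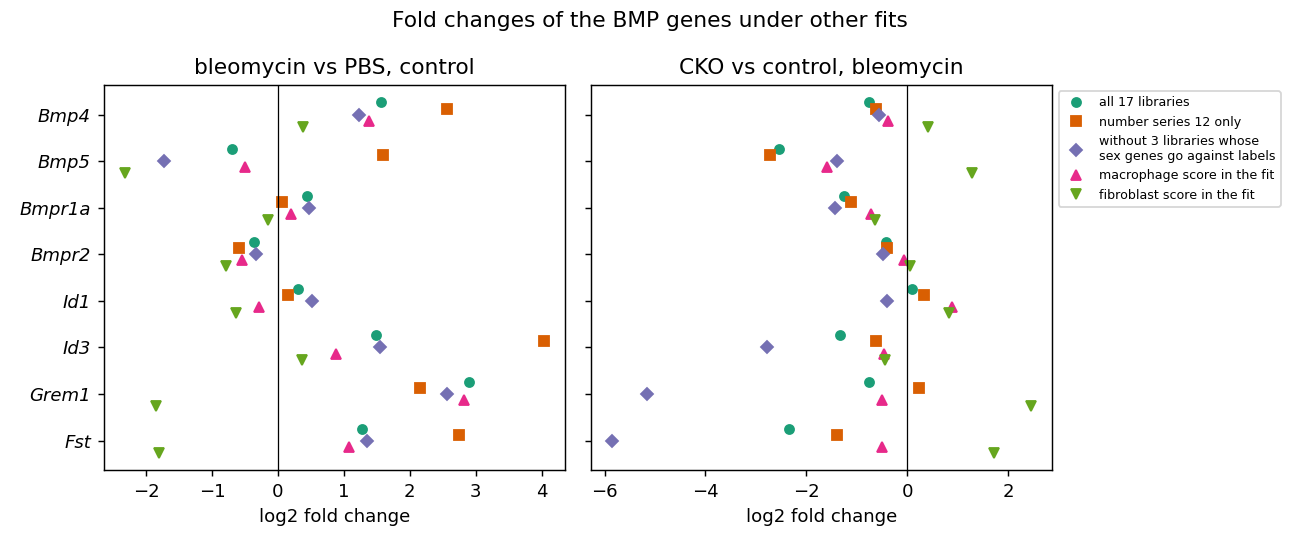
log2 fold change (x axes) of the 8 BMP genes with all 17 libraries and under 4 other fits, for bleomycin in Ephb4 control (left) and Ephb4 CKO against Ephb4 control after bleomycin (right). Bmpr1a and Id3 stayed below 0 on the right in all 5 fits shown, and Grem1 ranged from -5.16 to 2.46. No value shown had an adjusted p under 0.05 (edgeR).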

How the data were processed

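Total RNA was sequenced from passage-1 lung fibroblasts of 17 mice. The authors trimmed reads with cutadapt (1.18 in the submitters' processing notes; the study's methods give another version), aligned them by strand with HISAT2 2.1.0 to GRCm38, and estimated transcripts with StringTie. The deposited table holds whole-number counts per gene that the authors derived from StringTie coverage. Here genes with CPM above 10 in at least 2 libraries were kept (10481 of 55421). They were tested with edgeR 4.0.16 (R 4.3.3; TMM, quasi-likelihood, all groups in 1 fit, Benjamini-Hochberg at 0.05). DESeq2 1.42.0 and limma 3.58.1 were alternatives. The study's batch term could not be used, because the labels do not give it; the 2 runs of columns (8 and 9) served as an alternative. Log2 CPM used a prior count of 2. Groups came from the labels. Counts of groups without overlap in subsets of libraries, values of non-members without 3 libraries, and the block on title numbers were added after seeing the data. Scripts were tested on simulated data. Members, lists and tests were chosen with earlier results of these data known. Named pathway genes had the highest mean CPM or the smallest p of a role, and likeness was the top 3 by Pearson r. Positions are from GENCODE M21 and promoters from RefSeq, in which 6 of 8 members were found.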

Additional observations from a re-analysis of the deposited data

Results flagged for a closer look

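Bmpr1a in Ephb4 control bleomycin replicate 4 (104.7 CPM) stood apart from the other 3 cultures of its group, which lay between 93.3 and 94.1 CPM. The gap took 0.918 of the group's range, above Dixon's 95% critical value for 4 samples. It was 1 of 32 combinations of gene and group examined, and chance alone marks about 1 in 20.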

How the results depend on the processing

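No member passed an adjusted p of 0.05 in any of the 552 values from other fits or the 680 with 1 mouse left out, wherever the tool gave one (smallest 0.079, Bmpr1a for CKO after bleomycin with only the groups compared), and 57 and 42 of these had the opposite sign. The counts of genes called did depend on the tool. edgeR called 0 genes in all 5 comparisons, with 1494, 209, 2119, 101 and 363 at an unadjusted p under 0.05. DESeq2 called 166 for bleomycin in control, 1 for CKO after PBS, 399 for CKO after bleomycin and 1 for bleomycin in CKO. With column run it called 231, 387, 1 for bleomycin in CKO and 1 for the interaction. BMP genes among these were Acvr2a (1 gene for CKO after bleomycin), and with column run Crim1 (1 gene for bleomycin in control) and Acvr2a, Bambi and Crim1 (3 genes for CKO after bleomycin). With number series 12 alone edgeR called 4 genes for bleomycin in CKO. Leaving out 1 mouse gave 0 to 2 genes for bleomycin in control (2 without Ephb4 CKO bleomycin replicate 2) and 0 to 1 for CKO after bleomycin (1 without Ephb4 control bleomycin replicate 2).

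With DESeq2 with column run, the log2 fold changes with the opposite sign were Bmp5 0.054 for bleomycin in CKO. With limma voom, the log2 fold changes with the opposite sign were Bmp5 1.17 for bleomycin in control, Grem1 1.69 and Fst 1.30 for CKO after PBS, Bmp5 0.23 for bleomycin in CKO, and Bmp5 -0.95 and Bmpr2 -0.12 for the interaction. With the number series as a covariate, the log2 fold changes with the opposite sign were Bmp5 0.44, Bmpr1a -0.050 and Fst -0.76 for bleomycin in control, Bmp5 0.042 and Fst -0.62 for bleomycin in CKO, and Bmp5 -0.40 and Fst 0.14 for the interaction. With the fibroblast score as a covariate, the log2 fold changes with the opposite sign were Bmpr1a -0.15, Id1 -0.64, Grem1 -1.85 and Fst -1.81 for bleomycin in control, Grem1 0.72 and Fst 1.77 for CKO after PBS, Bmp4 0.42, Bmp5 1.28, Bmpr2 0.052, Grem1 2.46 and Fst 1.73 for CKO after bleomycin, Grem1 -0.11 and Fst -1.84 for bleomycin in CKO, and Bmp4 0.082, Id3 0.44 and Grem1 1.74 for the interaction. With the macrophage score as a covariate, the log2 fold changes with the opposite sign were Id1 -0.29 for bleomycin in control, Id1 0.060 and Fst 0.26 for CKO after PBS, and Id3 0.19 for the interaction. With number series 12 alone, the log2 fold changes with the opposite sign were Bmp5 1.60 for bleomycin in control, Id3 1.25 and Fst 0.98 for CKO after PBS, Grem1 0.23 for CKO after bleomycin, Bmp5 0.45 for bleomycin in CKO, and Bmp5 -1.15, Bmpr2 -0.0057 and Grem1 1.62 for the interaction. With the 3 libraries with contrary sex-linked genes left out, the log2 fold changes with the opposite sign were Id1 -0.41 for CKO after bleomycin, Id3 -0.27, Grem1 -2.29 and Fst -3.22 for bleomycin in CKO, and Bmpr2 -0.037 and Id1 -0.29 for the interaction. The cause was not tested. With 1 mouse left out at a time, ranges that crossed 0 were for bleomycin in control, Bmp5 -1.72 to 2.88, Bmpr2 -0.64 to 0.11, Id1 -0.064 to 0.56; for CKO after PBS, Bmp4 -0.20 to 1.03, Bmp5 -4.34 to 0.57, Bmpr2 -0.72 to 0.018, Id1 -0.47 to 0.13, Id3 -1.33 to 0.0078, Grem1 -0.72 to 0.49, Fst -2.46 to 1.74; for CKO after bleomycin, Id1 -0.12 to 0.46; for bleomycin in CKO, Bmp5 -0.88 to 1.09, Bmpr1a -0.42 to 0.17, Fst -0.62 to 1.37; for the interaction, Bmp5 -3.16 to 1.79, Bmpr2 -0.46 to 0.31, Id1 -0.048 to 0.57, Id3 -1.34 to 0.18, Fst -4.08 to 0.097. Likewise the fibroblast score difference for CKO after PBS -1.08 to 1.47, the fibroblast score difference for bleomycin in CKO -0.19 to 1.98, the macrophage score difference for bleomycin in CKO -0.082 to 0.27. At a prior count of 0.5 the fibroblast score difference for CKO after PBS was 0.023.

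The groups compared share no full number in the sample titles, and 2 full numbers recur, in groups that were not compared. Each recurs with the other labelled sex. Ephb4 control bleomycin replicate 2 and Ephb4 CKO bleomycin replicate 2, whose sex-linked genes went against the labels, each carry 1 of them. What this means for the labels was not tested. Cut by their last digit, the title numbers form 8 sets of which compared groups share 1 to 3. The labels do not say what these sets mark, so the cultures were not taken as paired. Deviations from the group means correlated at -0.48 to 0.76 for same-set cultures and at -0.56 to 0.60 for other cultures. With 1 to 4 same-set pairs per comparison, these values cannot decide whether the sets mark pairs. With these sets as a block no count of edgeR calls changed, and the log2 fold changes with the opposite sign were Bmp5 1.87, Bmpr1a -0.23, Id1 -0.13 and Fst -0.50 for bleomycin in control, Bmp4 -0.39 for CKO after PBS, Bmp5 0.061 for bleomycin in CKO, and Bmp5 -1.81, Bmpr1a 0.22 and Fst 0.59 for the interaction. With 4 or 5 mice per group and an SE of at least 1.37 on the log2 scale for Grem1, Fst and Bmp5, only large differences in these 3 genes could have passed the threshold. Number series and treatment are confounded in Ephb4 control bleomycin, where all 4 mice are of series 12. The edgeR p-values set a difference between groups against the spread between mice.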
